A study of Mus musculus with 7 samples.

Results

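Collagens are the main structural proteins of the extracellular matrix, and the genes that encode their chains were examined here for 5-formylcytosine (5fC), an oxidation product of 5-methylcytosine (5mC) in DNA. The genes were chosen by name from GENCODE release M1 on mm9, as autosomal protein-coding genes whose symbol is Col, a type number up to 28, the letter a and a chain number. This gave 41 genes of the 21418 autosomal protein-coding genes. Col4a5 and Col4a6 lie on the X chromosome, and those 2 genes were left out. All libraries came from mouse J1 ES cells (129S4/SvJae), an embryonic stem cell line, in which formyl groups were tagged with biotin, captured and sequenced. TDG KD cells were transfected over 3 rounds with a pool of siRNAs against Tdg, the DNA glycosylase that removes 5fC (BHAM480 and EAR003). siRNA control cells were transfected in the same way with a non-targeting siRNA (BHAM479 and EAR001). Wild-type cells received no siRNA (BHAM359 and BHAM470). Wild-type cells were kept on irradiated mouse embryonic fibroblast feeders and both siRNA cultures were grown without them, so that transfection and the absence of feeders cannot be told apart. All 6 pulldowns were set against 1 input library from wild-type cells. A DNA pulldown holds no transcript level, so neither the cell type nor the depletion of Tdg could be checked.

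Each collagen is built from 3 chains that wind into a triple helix, with glycine recurring at a fixed spacing along the helix. Fibrillar collagens form the load-bearing fibers of skin, bone, tendon and cartilage. Type IV chains form the sheet-like network of basement membranes, and type VI chains form beaded filaments around cells. The FACIT chains (fibril-associated collagens with interrupted triple helices) sit on the surface of fibrils. Other chains make anchoring fibrils, short-chain networks, transmembrane proteins or the multiplexins, which release fragments such as endostatin. Fibroblasts are a main source of fibrillar collagen in tissues. Most collagen genes are long and are split into many short exons.

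The 41 genes had a median length of 107.3 kb, against 15.54 kb over all genes, and a median of 49 exons, against 7. Their median exon width was 58.5 bp, against 158 bp over all genes. Of the 1895 coding exons in the transcripts of longest coding sequence, 464 (24.5%) were exactly 54 bp and 1185 (62.5%) had a width that was a multiple of 9 bp, the length that encodes 1 glycine triplet. Exons outside the start window held a median of 2.19 CpG per 100 bp in collagen genes and 1.85 in all genes. Introns held 0.94 CpG per 100 bp in both. Windows of 1 kb on each side of the gene start, called TSS windows below, held a median of 2.65 CpG per 100 bp in collagen genes and 3.10 in all genes. A CpG island (CGI), taken as 200 bp or more of sequence above 50% GC whose CpG ratio (observed over expected) exceeds 0.6, lay in the TSS window of 29 of the 41 genes (70.7%), against 67.9% of all genes.

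Promoter sequences are shown for 5 fibrillar collagen genes because they span the range of 5fC states described below. The TSS windows of Col5a1, Col2a1 and Col1a1 were in an enriched domain in all 6 libraries, and those of Col11a1 and Col3a1 in none. Each run is the 150 bases just upstream of the start on the coding strand of mm9, in lower case with every CpG in capitals, and none of it overlaps an exon of an autosomal protein-coding gene.
Col5a1: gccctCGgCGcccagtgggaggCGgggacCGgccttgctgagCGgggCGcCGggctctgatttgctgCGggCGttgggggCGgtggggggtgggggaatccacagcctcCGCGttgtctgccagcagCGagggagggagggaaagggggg
Col2a1: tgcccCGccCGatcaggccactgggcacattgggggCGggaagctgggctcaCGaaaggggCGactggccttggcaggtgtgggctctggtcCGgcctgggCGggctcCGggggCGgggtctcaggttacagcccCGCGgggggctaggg
Col1a1: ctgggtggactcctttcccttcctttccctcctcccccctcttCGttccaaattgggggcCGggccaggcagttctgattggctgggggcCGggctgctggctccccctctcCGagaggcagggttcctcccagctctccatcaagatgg
Col11a1: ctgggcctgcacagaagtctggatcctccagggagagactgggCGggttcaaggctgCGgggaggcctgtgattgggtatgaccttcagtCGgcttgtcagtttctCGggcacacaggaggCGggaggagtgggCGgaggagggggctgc
Col3a1: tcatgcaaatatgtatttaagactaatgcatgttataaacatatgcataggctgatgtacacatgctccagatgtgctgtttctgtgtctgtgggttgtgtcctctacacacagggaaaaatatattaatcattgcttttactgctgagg
The runs lie at chr2:27741795-27741944 (+), chr15:97835156-97835305 (-), chr11:94797388-94797537 (+), chr3:113733308-113733457 (+) and chr1:45368233-45368382 (+), in the order printed. They held 13, 11, 4, 6 and 0 CpGs in that order. Col11a1 therefore had more CpGs just upstream than Col1a1, and the 2 genes had the same GC content there (64.7%).

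Coding sequence is shown for 4 of the same genes as the 54 bp coding exon richest in CpG, since exons were measured apart from promoters. Each run reads 5′ to 3′ on the coding strand, with every CpG in capitals.
Col2a1: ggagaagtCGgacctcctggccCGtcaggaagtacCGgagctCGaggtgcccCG
Col1a1: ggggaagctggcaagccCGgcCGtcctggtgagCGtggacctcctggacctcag
Col11a1: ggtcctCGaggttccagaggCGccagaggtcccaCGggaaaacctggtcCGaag
Col3a1: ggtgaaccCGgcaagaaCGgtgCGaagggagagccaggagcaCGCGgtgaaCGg
They lie at chr15:97813669-97813722 (-), chr11:94801859-94801912 (+), chr3:113841662-113841715 (+) and chr1:45388818-45388871 (+) of mm9. Over all 54 bp coding exons of a gene, Col2a1 averaged 2.04 CpGs per exon (24 exons), Col1a1 1.48 (21 exons), Col11a1 0.77 (31 exons) and Col3a1 1.08 (24 exons). Among the 17 collagen genes with at least 10 such exons, the average ran between 0.73 in Col19a1 and 2.08 in Col16a1.

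The deposited values are domains, stretches of the genome that the authors' caller put into the state enriched, background or unconfident, each with the excess of pulldown over input reads in an average 100 bp bin, a unit inferred from the sums of the values. A level below is that value averaged over the bases of a feature, minus the mean of the library, per 100 M uniquely placed reads. A level of 0 is thus the average of the library and a negative level lies below it. The libraries differed widely in how finely they were cut. Enriched domains had a median width of 700 bp in BHAM359, the deepest library with 45.9 M reads, and of 5900 to 24550 bp in the other 5, which had 20.4 to 29.2 M reads. As a result 1 collagen gene lay wholly in 1 domain in BHAM359, but 24 and 19 in TDG KD, 21 and 30 in siRNA control and 24 in BHAM470. Where a gene lies in 1 domain, its promoter, exons and introns share 1 value, and a difference between them cannot be seen. BHAM480 stood apart in a further way, as 34.0% of all TSS windows and 13 of the 41 collagen TSS windows were in its unconfident state, against at most 0.345% of all windows and 0 of the collagen windows in each of the other libraries.

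In each of the 6 libraries the share of TSS windows enriched for 5fC was higher in collagen genes than in all genes. The criterion was that 50% or more of the bases of a window lay in enriched domains. By this measure 10 and 28 of the 41 collagen windows were enriched in the TDG KD libraries BHAM480 and EAR003, against 16.0% and 55.7% of all 21153 genes with values. In the siRNA control libraries BHAM479 and EAR001 the counts were 25 and 21, against 45.3% and 41.5% of all genes. In the wild-type libraries BHAM359 and BHAM470 they were 27 and 23, against 53.1% and 49.0%. Both TDG KD libraries had 10 in common (24.4%, all genes 15.1%), both siRNA control libraries 20 (48.8%, all genes 34.7%) and both wild-type libraries 20 (48.8%, all genes 39.1%). These shares are a description without a test, and neighboring genes can share a window. Col4a1 and Col4a2 start 21 bp apart on opposite strands and share 1980 bp of their windows, and Col4a3 and Col4a4 start 72 bp apart and share 1929 bp.

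**Figure D1:**
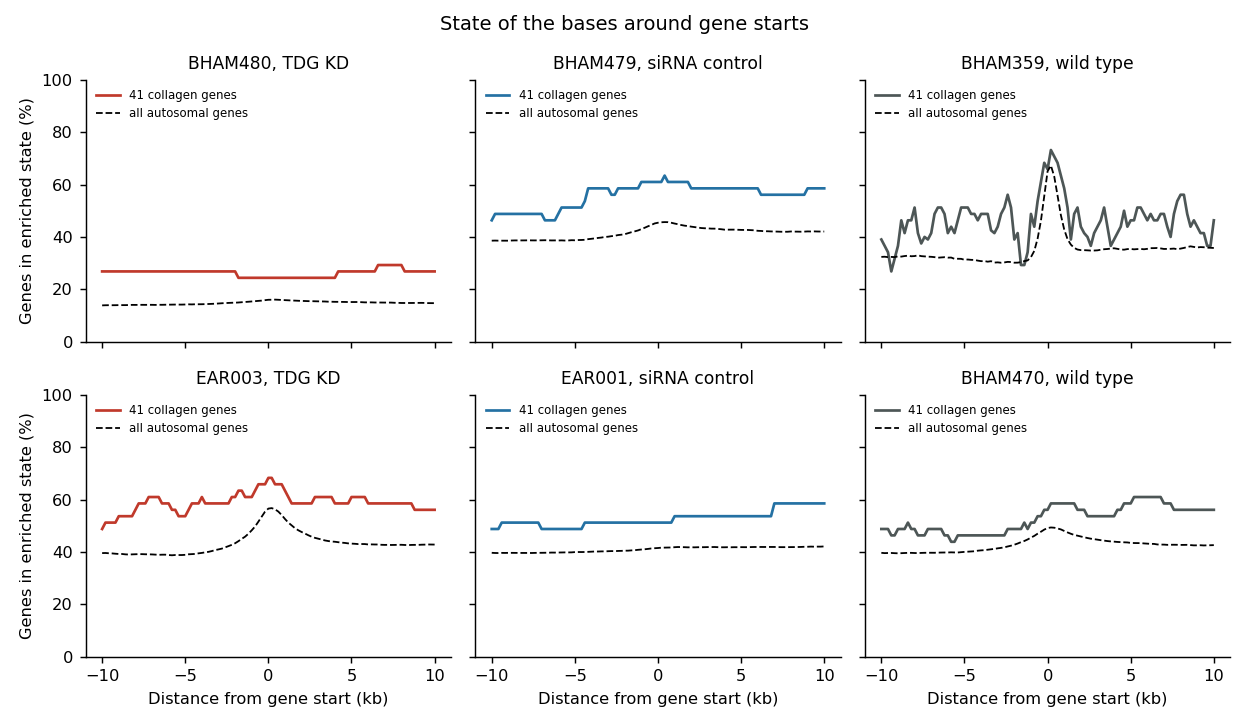
Share of gene starts whose bases lie in an enriched domain (y axis, %) by distance from the gene start (x axis, kb, positive downstream). Solid lines are the 41 collagen genes and dashed lines all autosomal protein-coding genes, with 1 panel per library. At the start the share in collagen genes was 24.4% and 68.3% in TDG KD, 61.0% and 51.2% in siRNA control and 65.9% and 56.1% in wild type, and a narrow peak at the start stands out in BHAM359.

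In the plot of state by distance, BHAM359 had the enriched state at 65.9% of collagen gene starts. At positions 10 kb upstream and 10 kb downstream the shares were 39.0% and 46.3%. Over all genes the same 3 values were 65.1%, 32.4% and 35.8%. In EAR001, the library with the widest domains, 51.2% of collagen starts were enriched, with 48.8% and 58.5% at 10 kb upstream and downstream. At 10 kb on either side of the start, collagen genes were in the enriched state more often than all genes in every library. At the start itself the 2 shares in BHAM359 were nearly equal. The downstream position was taken whatever the gene length, whose median was 107.3 kb in collagen genes and 15.54 kb in all genes. In genes shorter than 10 kb it lies past the gene end.

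In all 6 libraries 9 collagen windows were enriched (22.0%, all genes 11.0%), and without BHAM480 there were 17. Dropping the lowest 25% of enriched domains left 3. The 9 were the windows of the fibrillar genes Col1a1, Col2a1, Col5a1 and Col11a2, the basement membrane pair Col4a1 and Col4a2, Col8a2 of short-chain networks, and the FACIT genes Col9a3 and Col16a1. In no library were 7 windows enriched (17.1%, all genes 28.7%). These belonged to the fibrillar genes Col3a1, Col5a2 and Col11a1, the beaded filament gene Col6a5, the short-chain genes Col8a1 and Col10a1, and Col28a1. Among the 11 fibrillar genes, 4 were thus enriched in all libraries and 3 in none, although 10 of the 11 had a CGI in the window. With a CGI, 16 of 29 collagen windows (55.2%) were enriched in both wild-type libraries, against 45.8% of all windows with a CGI. Without a CGI the count was 4 of 12 (33.3%, all genes 24.6%). Close to the limit of 50%, the windows of Col4a3 and Col4a4 were enriched over 54.97% of their bases in BHAM359, whereas Col23a1 in BHAM470 and Col24a1 in BHAM359 reached 49.98% each and Col27a1 in BHAM359 reached 41.18%. Col27a1, a fibrillar chain of cartilage, was the one gene enriched in the other 5 libraries and not in BHAM359, and it was enriched in all 6 when the start of its longest coding transcript was used, which lies 1431 bp away.

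**Figure D2:**
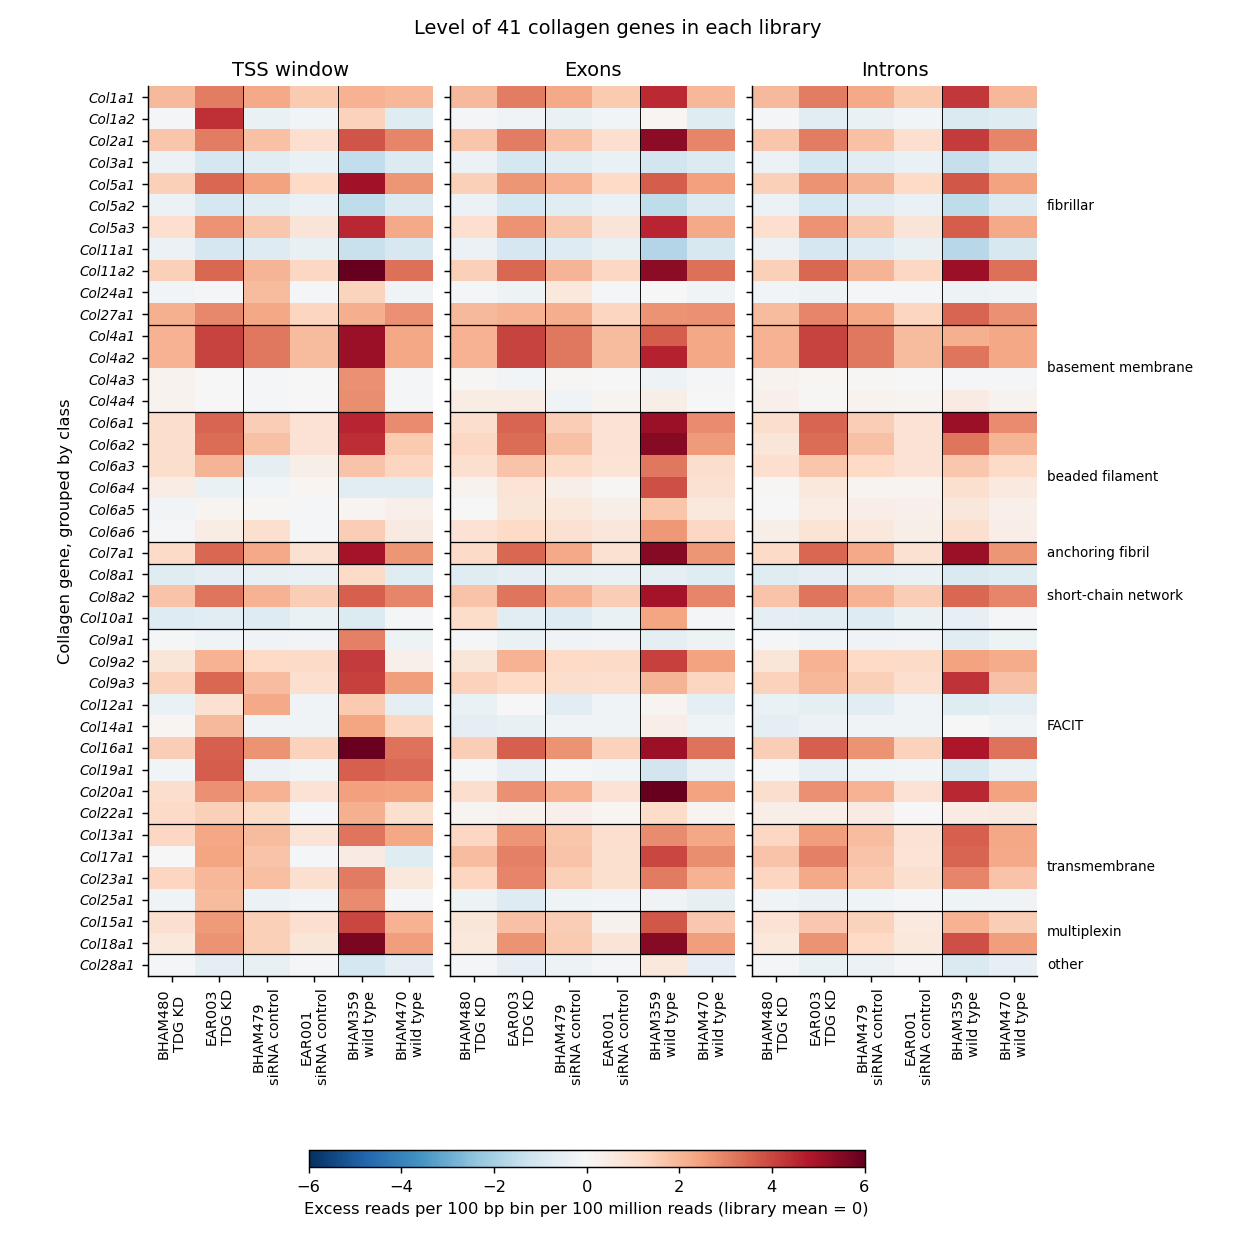
Levels of the 41 collagen genes (rows, grouped by class) in the TSS window, exons and introns (panels) of each library (columns), as excess reads per 100 bp bin per 100 M reads, with the library mean at 0 (white). Rows such as Col16a1 and Col11a2 are red in all panels, the rows of Col3a1, Col5a2 and Col11a1 are blue in all, and Col19a1 is red in the TSS window of 3 libraries and in no body.

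Promoter and gene body were in the same state in both wild-type libraries in most collagen genes, as in most of all genes. In BHAM470, 24 of the 41 collagen genes lay wholly in 1 domain, where the 2 parts cannot differ. In both wild-type libraries 17 genes were enriched in the TSS window and over at least 50% of the body, which is the rest of the gene (41.5%, all genes 29.5%). Neither part was enriched in 9 genes (22.0%, all genes 29.6%). The TSS window alone was enriched in 2, Col6a6 and Col19a1 (4.88%, all genes 5.89%), and the body alone in 1, Col17a1 (2.44%, all genes 1.47%). The 12 others changed class between the 2 wild-type libraries. In BHAM359, the library that separates the parts best, 8 genes were enriched in the TSS window only (19.5%, all genes 23.9%).

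Genes whose TSS window and body were both enriched in both wild-type libraries came from several classes. Col1a1, whose product is the main chain of type I collagen in bone and skin, lies at chr11:94797538-94814356. Its TSS window had levels of 1.93 and 3.09 in TDG KD, 2.25 and 1.55 in siRNA control and 2.09 and 2.00 in wild type. Its gene body had the same value as the window in every library but BHAM359, where the body was at 4.16 and the window at 2.09. All libraries were above 0 in both parts, and the conditions overlapped. Col2a1, the fibrillar chain of cartilage, had TSS levels of 1.68 and 3.06 in TDG KD, 1.75 and 1.02 in siRNA control and 3.79 and 2.92 in wild type. Its exons reached 5.37 in BHAM359, against 4.20 in its introns. Col4a1, which encodes the main basement membrane chain and shares its promoter with Col4a2, had TSS levels of 2.07 and 4.04 in TDG KD, 3.14 and 1.88 in siRNA control and 5.16 and 2.31 in wild type. The Col4a1 and Col4a2 starts were in 1 domain in all 6 libraries, and that domain was 4742 kb wide in BHAM480 and 6.9 kb in BHAM359. These 2 genes lie on chromosome 8, whose mean level was 0.85 and 1.20 in TDG KD, 1.15 and 1.015 in siRNA control and 0.47 and 0.37 in wild type, and over the mean of their own chromosome the TSS levels of Col4a1 were 1.22 and 2.84 in TDG KD, 1.99 and 0.86 in siRNA control and 4.68 and 1.94 in wild type. Col4a2, its partner chain, had the same TSS levels, with 4.61 in exons and 3.23 in introns in BHAM359, and the same value in all parts elsewhere. Col18a1, the multiplexin that holds endostatin, had TSS levels of 0.62 and 2.69 in TDG KD, 1.42 and 0.73 in siRNA control and 5.63 and 2.52 in wild type, and BHAM359 was the highest library. In BHAM480 the window and body of Col18a1 were in the unconfident state, and its window was enriched in the other 5 libraries.

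Genes at or below the library mean throughout included Col3a1, the type III chain that accompanies type I in skin and vessels. Its TSS levels were -0.34 and -1.04 in TDG KD, -0.68 and -0.39 in siRNA control and -1.46 and -0.81 in wild type. Every value was negative, and exons and introns had the same value as the window in all libraries but BHAM359. Col5a2, a minor fibril chain 191744 bp away on chromosome 1, started in the same domain as Col3a1 in 5 of 6 libraries, so the 2 genes are 1 observation there. Its BHAM359 level was -1.54 in the window, exons and introns alike, the one collagen gene in 1 domain in that library. Col11a1, a minor chain of cartilage fibrils, had TSS levels of -0.37 and -1.02 in TDG KD, -0.78 and -0.44 in siRNA control and -1.31 and -0.96 in wild type, in a background domain at least 2020 kb wide in every library but BHAM359. The body of Col11a1 was enriched over at most 0.846% of its bases in any library.

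A group of genes had 5fC at the start and little in the body. Col19a1, a FACIT chain, had the largest mean difference between TSS window and body, 2.05 ± 2.29 (SD, n = 6 libraries). Its TSS levels were -0.15 and 3.62 in TDG KD, -0.34 and -0.14 in siRNA control and 3.56 and 3.41 in wild type. EAR003 and both wild-type libraries were high and the other 3 were below 0, while the body was below 0 in all 6 libraries. Col1a2, the second chain of type I collagen, had TSS levels of -0.14 and 4.40 in TDG KD, -0.42 and -0.14 in siRNA control and 1.40 and -0.74 in wild type. EAR003 and BHAM359 alone were above 0 in the window, where EAR003 had an enriched domain 3.2 kb wide and BHAM359 one of 1.4 kb. The body of Col1a2 was below 0 in all 6 libraries. Its mean difference was 1.19 ± 2.05 (SD, n = 6 libraries), and the spread between libraries exceeded the mean. Col14a1, a FACIT chain, differed by 1.16 ± 1.08 (SD, n = 6 libraries), with the TSS window higher in 5 of 6 libraries and equal in EAR001. Its TSS levels were 0.12 and 1.96 in TDG KD, -0.19 and -0.23 in siRNA control and 2.36 and 1.31 in wild type. Col12a1, another FACIT chain, differed by 1.09 ± 1.28 (SD, n = 6 libraries) and Col25a1, a transmembrane collagen of neurons, by 0.90 ± 1.43 (SD, n = 6 libraries). Each of these was carried by 2 or 3 libraries, and Col12a1 reached 2.27 in BHAM479 but -0.56 in BHAM470.

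The 5 genes with the lowest mean differences did not all have the opposite layout. Col17a1, the transmembrane collagen of hemidesmosomes, had the lowest mean difference, -1.57 ± 1.27 (SD, n = 6 libraries). Its TSS levels were -0.0013 and 2.36 in TDG KD, 1.69 and -0.10 in siRNA control and 0.51 and -0.70 in wild type. Its body levels were 1.73 and 3.02 in TDG KD, 1.69 and 0.83 in siRNA control and 3.55 and 2.33 in wild type, positive in all 6. The window was lower than the body in 5 libraries and equal in BHAM479. Col6a4, a beaded filament chain, followed with -0.70 ± 0.83 (SD, n = 6 libraries) and was lower in the window in 5 of 6 libraries. Col10a1, the network collagen of hypertrophic cartilage, differed by -0.45 ± 0.73 (SD, n = 6 libraries), Col20a1 by -0.38 ± 0.93 (SD, n = 6 libraries) and Col1a1 by -0.34 ± 0.84 (SD, n = 6 libraries). For Col20a1 and Col1a1 the whole difference came from BHAM359, as window and body were equal in the other 5 libraries. Their windows were enriched in 5 and 6 libraries. In no library was the window or the body of Col10a1 enriched over 50% or more of its bases.

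**Figure D3:**
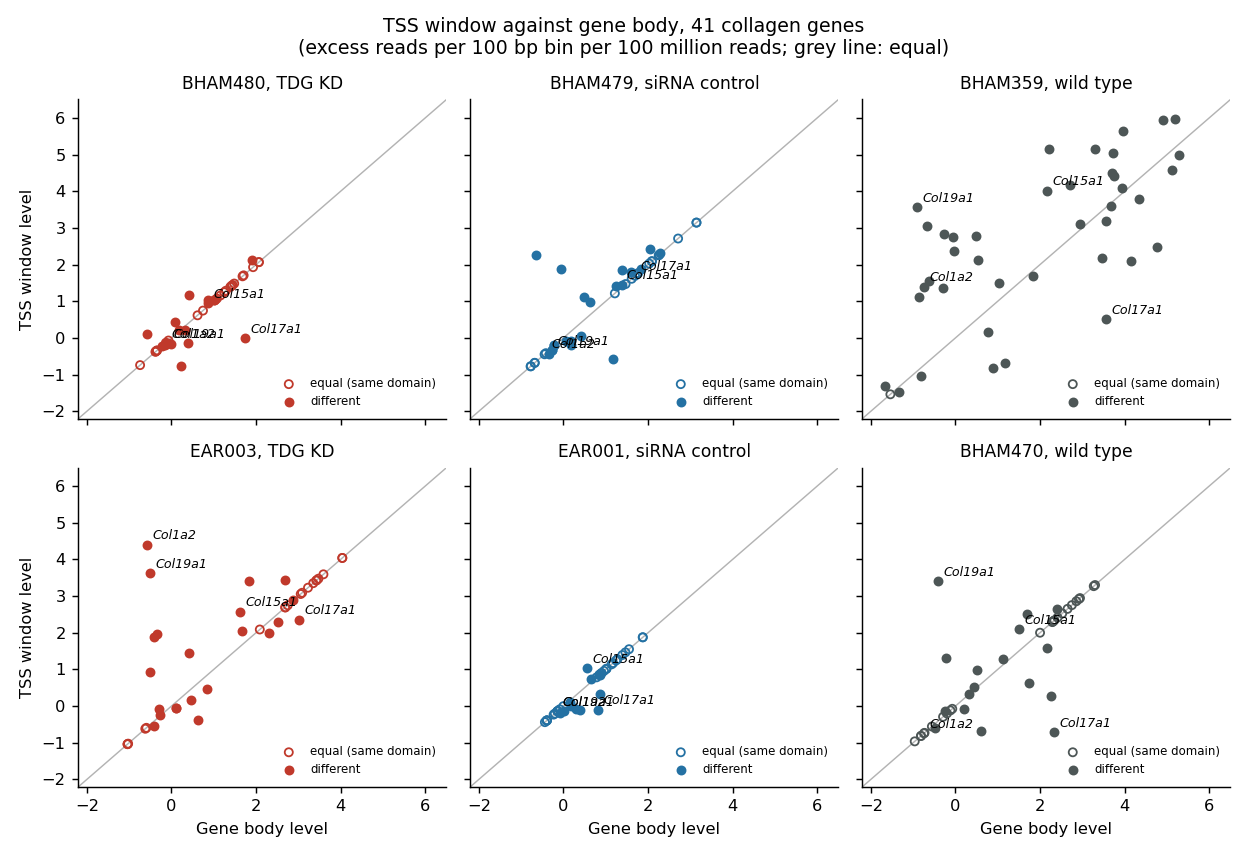
TSS window level (y axis) against gene body level (x axis) of the 41 collagen genes in each library, in excess reads per 100 bp bin per 100 M reads. Open points on the grey line are genes whose 2 parts had the same value, 24 and 19 in TDG KD, 21 and 30 in siRNA control and 1 and 24 in wild type. Col19a1 and Col1a2 lie far above the line in EAR003, and Col17a1 lies below it or on it in every library.

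No difference between promoter and body common to the whole family was seen, although in 5 libraries many genes could not show one. The TSS window was above the body in 9 and 13 genes in TDG KD (all genes 15% and 29.2%). It was above in 12 and 2 in siRNA control (all genes 17.8% and 9.42%) and in 25 and 10 in wild type (all genes 58.9% and 20.1%). The window was below the body in 8 and 9 genes in TDG KD (all genes 17.1% and 18.7%). It was below in 8 and 9 in siRNA control (all genes 21.1% and 15.7%) and in 15 and 7 in wild type (all genes 30.5% and 20.2%). In BHAM359 the window was higher in 25 of 41 (61.0%, all genes 58.9%), with a median difference of 0.67 in collagen genes and 0.54 in all 19370 genes with both values. In the other 5 libraries the median difference was 0 in both, where window and body of 19 to 30 collagen genes had the same value. Only Col15a1, a multiplexin of basement membrane zones, was higher in the window in 6 of 6 libraries (2.44%, all genes 1.95%). No collagen gene was lower in 6 of 6 (0%, all genes 1.23%). The exact two-sided sign-flip test over the 6 libraries gave Col15a1 p = 0.0312, the smallest it can give, and an adjusted p of 0.84 over all genes. It called 0% of all genes at an adjusted p of 0.05. The smallest p passes the adjustment only if a large share of all genes reaches it. Only the 1.95% of genes higher and the 1.23% lower in 6 of 6 libraries did so.

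Col15a1 had TSS levels of 0.94 and 2.57 in TDG KD, 1.45 and 1.03 in siRNA control and 4.01 and 2.10 in wild type and body levels of 0.86 and 1.61 in TDG KD, 1.37 and 0.56 in siRNA control and 2.17 and 1.51 in wild type. The window exceeded the body by 0.67 ± 0.66 (SD, n = 6 libraries). In both parts TDG KD overlapped the other conditions, while both siRNA control libraries lay below both wild-type libraries. Without EAR001, the library with the widest domains, Col14a1 and Col22a1 were also higher in the window in all remaining libraries, 3 collagen genes against 3.7% of all genes.

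**Figure D4:**
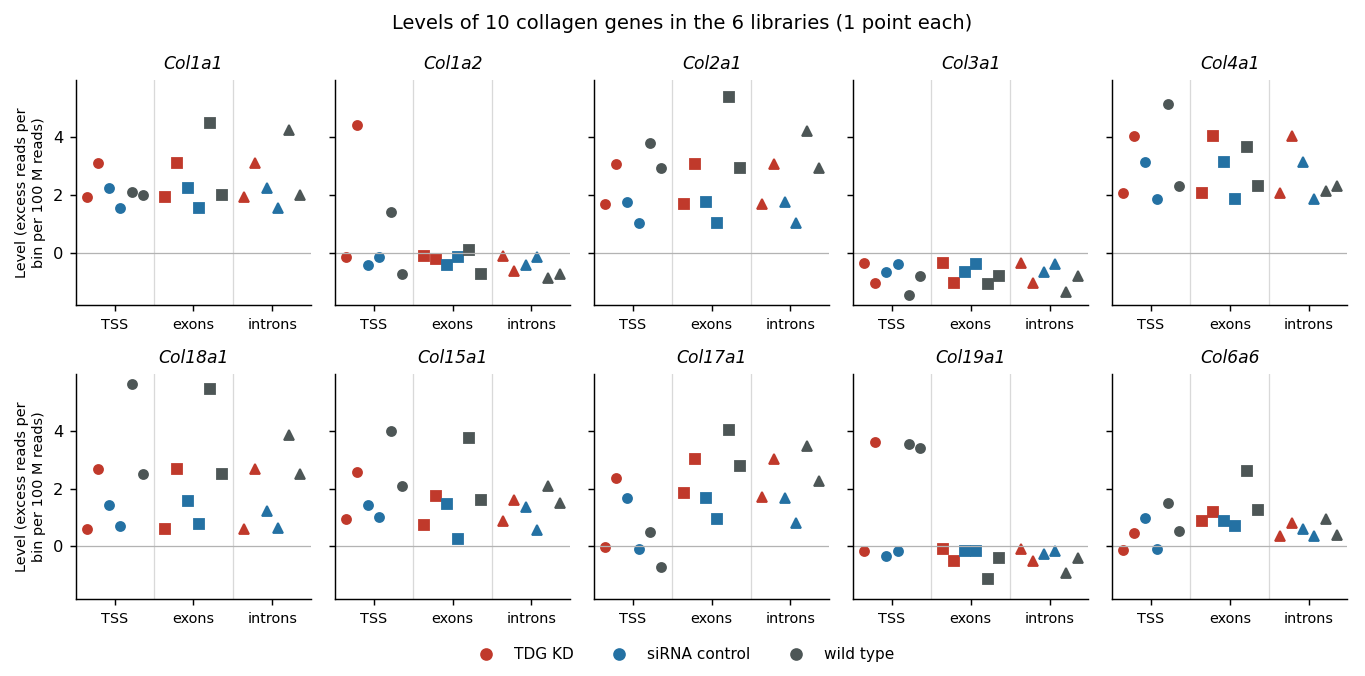
Levels of 10 collagen genes in the TSS window (circles), exons (squares) and introns (triangles), in excess reads per 100 bp bin per 100 M reads, with 1 point per library and color for the condition. Col1a1, Col2a1 and Col4a1 are above 0 in every library and part, Col3a1 is below 0 throughout, and Col1a2 and Col19a1 are above 0 mainly in the window.

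Exons lay above introns in most collagen genes in the finest library and in few genes elsewhere. Exons and introns were taken outside the TSS window. The median collagen exon, at 58.5 bp, is narrower than the 100 bp bin of the domains, so a single exon is not resolved from its introns. In BHAM359 exons were higher in 31 of 41 collagen genes (75.6%, all genes 60.3%), lower in 9 and equal in 1, with a median difference of 0.43 against 0.41 in all 17852 genes with both values. In the other libraries exons were higher in 10 and 10 genes in TDG KD (all genes 18.9% and 28.3%). In siRNA control they were higher in 11 and 6 (all genes 23.3% and 15.8%), and in BHAM470 in 10 (all genes 23.8%). Exons were lower in 7 and 11 genes in TDG KD (all genes 13% and 16.6%). They were lower in 8 and 5 in siRNA control (all genes 14.7% and 9.16%) and in 7 in BHAM470 (all genes 14.8%). The 2 parts were equal in 24 and 20 genes in TDG KD, 22 and 30 in siRNA control and 24 in BHAM470. Col6a6, a beaded filament chain, was the one gene with exons higher in 6 of 6 libraries (2.44%, all genes 4.92%), and none was lower in all (0%, all genes 0.706%). Its exon levels were 0.88 and 1.21 in TDG KD, 0.89 and 0.70 in siRNA control and 2.61 and 1.26 in wild type. Its intron levels were 0.37 and 0.83 in TDG KD, 0.61 and 0.37 in siRNA control and 0.94 and 0.39 in wild type. The difference was 0.67 ± 0.53 (SD, n = 6 libraries), with an exact sign-flip p of 0.0312 and an adjusted p of 0.56, and the test called 0% of all genes.

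The 3 type VI genes Col6a4, Col6a5 and Col6a6 stand side by side on chromosome 9, with starts 132559 to 136140 bp apart. In all 3, exons lay above introns in BHAM359. Exon and intron levels there were 3.87 and 0.97 in Col6a4, 1.66 and 0.67 in Col6a5 and 2.61 and 0.94 in Col6a6. Over the 6 libraries Col6a4 differed by 0.62 ± 1.12 (SD, n = 6 libraries) and was higher in exons in 5. Col10a1 had the largest mean, 0.76 ± 1.24 (SD, n = 6 libraries), which came from BHAM480 (1.09 in exons, -0.57 in introns) and BHAM359 (2.38 and -0.51), with equal values in the other 4. At the other end, Col9a3, a FACIT chain of cartilage, averaged -0.65 ± 0.86 (SD, n = 6 libraries) and was lower in exons in 4 libraries and equal in 2. Col27a1 averaged -0.28 ± 0.39 (SD, n = 6 libraries) and Col25a1 -0.12 ± 0.15 (SD, n = 6 libraries).

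**Figure D5:**
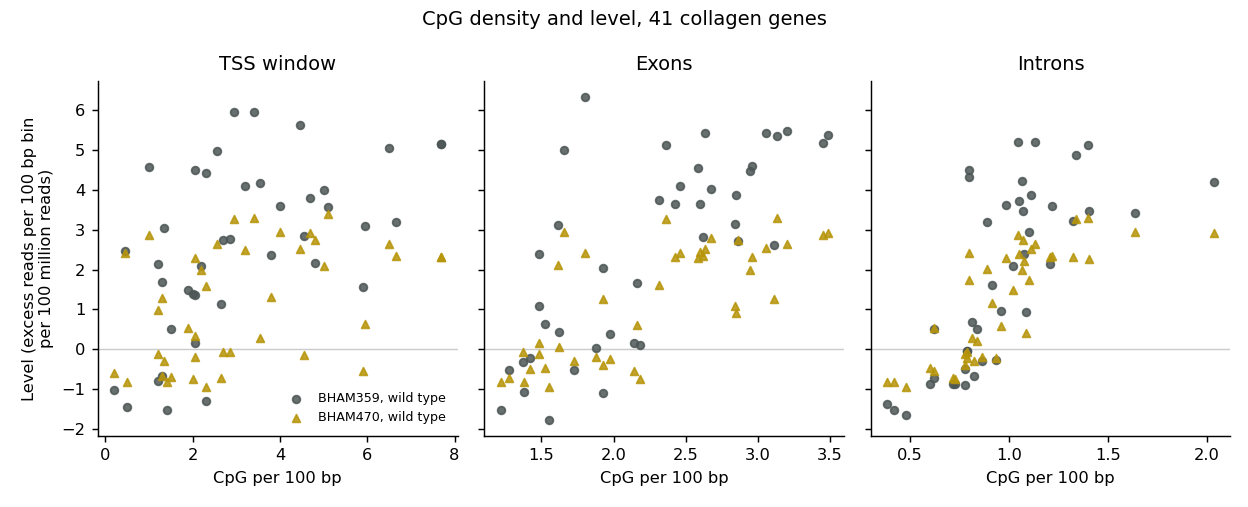
Level (y axis, excess reads per 100 bp bin per 100 M reads) against CpG per 100 bp (x axis) of the TSS window, exons and introns of 41 collagen genes in the wild-type libraries BHAM359 (circles) and BHAM470 (triangles). Levels rise with CpG density in each panel, with Spearman coefficients of 0.57 and 0.45 in the window, 0.72 and 0.70 in exons and 0.76 and 0.85 in introns.

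The level followed the CpG density of the sequence across collagen genes. In each library the Spearman coefficient was higher in introns than in exons and in exons than in the TSS window. In the 5 libraries other than BHAM359, 19 to 30 genes lay in 1 domain, with 1 level for all parts. For those genes the order reflects the CpG densities alone. For the TSS window, Spearman coefficients over the 41 genes were 0.40 and 0.45 in TDG KD, 0.52 and 0.46 in siRNA control and 0.57 and 0.45 in wild type. For exons they were 0.60 and 0.73 in TDG KD, 0.68 and 0.63 in siRNA control and 0.72 and 0.70 in wild type. For introns they were 0.81 and 0.84 in TDG KD, 0.81 and 0.82 in siRNA control and 0.76 and 0.85 in wild type. Over all genes the range was 0.14 to 0.48 for windows, 0.49 to 0.64 for exons and 0.51 to 0.66 for introns. The level of the body was related to that of the window, with coefficients between 0.70 in BHAM359 and 0.97 in EAR001. Over all genes these were 0.60 and 0.90. In EAR001 the 2 values were the same in 30 of the 41 collagen genes. Body level was also related to gene length, between -0.54 in BHAM359 and -0.29 in BHAM479. Genes are not independent replicates, the points of a panel share a library and 1 domain can cover several features, so no p was computed.

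TDG KD and siRNA control were compared to ask whether loss of the enzyme that removes 5fC shifted collagen genes relative to the library mean. Levels are set against the mean of their own library and divided by its reads. A rise in 5fC shared by the whole genome therefore cannot be read from them. The paper reports such an overall rise after the knockdown, measured by mass spectrometry. By the inferred unit of the score, the same input reads were subtracted from every library, whatever its depth. An effect of depth may thus remain in the levels. No collagen gene passed limma in the TSS window, exons or introns at an adjusted p of 0.05, and neither did any other gene (0% of 21153, 19388 and 17868 genes). At an unadjusted p under 0.05 the windows, exons and introns of 0 collagen genes passed, against 0.917%, 0.438% and 0.946% of all genes. The median difference over collagen genes was 0.52 in the window (all genes 0.23), 0.38 in exons (all genes 0.16) and 0.27 in introns (all genes 0.093). It had opposite signs in the 2 pairs of libraries that share a prefix in their titles. BHAM480 minus BHAM479 had a median of -0.38 over the collagen windows, and EAR003 minus EAR001 a median of 1.62. BHAM480 was the shallowest library, with 20.4 M reads, and EAR001 had the widest enriched domains, with a median of 24550 bp, and the part of depth and domain width in these differences was not tested.

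In the TSS window 4 genes had both TDG KD libraries above both siRNA control libraries (9.76%, all genes 11.0%), Col1a2, Col6a3, Col14a1 and Col22a1. In 2, Col8a1 and Col24a1, both were below (4.88%, all genes 12.7%). Exons were above in 3 genes (7.32%, all genes 8.58%) and below in 4 (9.76%, all genes 13.3%). Introns were above in 2 (4.88%, all genes 8.31%) and below in 3 (7.32%, all genes 14.4%). Col6a3, a beaded filament chain, had TSS levels of 1.04 and 2.06 in TDG KD, -0.56 and 0.33 in siRNA control and 1.69 and 1.30 in wild type. Its difference between TDG KD and control was 1.67 (limma SE 0.73, adjusted p = 1.00), and it was higher in TDG KD within both prefixes, by 1.61 and 1.73. Col1a2 differed by 2.41 (SE 1.55), by 0.28 in the BHAM pair and 4.54 in the EAR pair. With 2 libraries on each side an exact permutation test of a single value cannot go below p = 0.333.

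The siRNA cultures, without feeders, were compared with wild type on feeders because collagen genes are typical of fibroblasts. Again 0% of all genes and 0 collagen genes passed limma in any of the 3 parts. At an unadjusted p under 0.05, 3 collagen windows passed (7.32%, all genes 11.0%), 3 genes in exons (7.32%, all genes 12.1%) and 3 in introns (7.32%, all genes 13.6%). The median difference was -0.95 in collagen windows and -0.95 in all genes, -0.95 in collagen exons and -0.86 in all genes, and -0.28 in collagen introns and -0.48 in all genes. All were closer to 0 without BHAM359, where the medians were -0.083 in collagen windows and -0.17 in all genes, -0.13 in collagen exons and -0.29 in all genes, and -0.19 in collagen introns and -0.27 in all genes. The 3 windows were those of Col11a2, Col18a1 and Col19a1. Col11a2, a cartilage fibril chain, had TSS levels of 1.44 and 3.43 in TDG KD, 2.03 and 1.24 in siRNA control and 5.97 and 3.30 in wild type. It averaged 2.04 ± 0.99 in siRNA cultures (SD, n = 4) and 4.63 ± 1.89 in wild type (SD, n = 2), a difference of -2.60 with a limma SE of 0.99 and an adjusted p of 0.39 over all genes. EAR003 exceeded BHAM470 for this gene, so the groups overlapped. Without the wild-type library BHAM470, so that wild type rests on BHAM359 alone, limma called 3 collagen windows, 7 collagen genes in exons and 0 in introns, and 1936, 5320 and 3 genes in all.

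Few collagen genes had siRNA and wild-type levels without overlap. In the TSS window all 4 siRNA libraries were above both wild-type libraries in 2 genes (4.88%, all genes 3.26%) and below both in 2 (4.88%, all genes 16.7%). In exons the counts were 0 (0%, all genes 4.21%) and 4 (9.76%, all genes 18.7%), and in introns 4 (9.76%, all genes 4.91%) and 2 (4.88%, all genes 20.9%). The windows above were those of Col28a1 and Col6a4 and the windows below those of Col6a5 and Col13a1. Col6a4 had TSS levels of 0.43 and -0.38 in TDG KD, -0.18 and 0.10 in siRNA control and -0.68 and -0.67 in wild type, so both wild-type values were negative and close to each other. Its exons went the other way, with levels of 0.22 and 0.83 in TDG KD, 0.35 and 0.093 in siRNA control and 3.87 and 0.91 in wild type. Introns above were those of Col1a2, Col4a3, Col9a1 and Col28a1. Col1a2 introns had levels of -0.13 and -0.65 in TDG KD, -0.42 and -0.14 in siRNA control and -0.86 and -0.74 in wild type, all negative. For the fibroblast chains Col1a1, Col1a2 and Col3a1, the TSS windows of siRNA and wild-type cultures overlapped. An exact permutation test of 4 against 2 libraries cannot go below p = 0.133.

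Fibroblast and ES cell genes were read in the same way, as 5fC levels and not as expression. Of 15 fibroblast genes, 4 had a TSS window enriched in both wild-type libraries (all genes 39.1%) and 6 in no library (all genes 28.7%), namely Fap, Fn1, Dcn, Lum, Postn and Prrx1. Their summed TSS level was 4.65 and 12.8 in TDG KD, 5.56 and 2.46 in siRNA control and 22.8 and 5.39 in wild type. Of 12 ES cell genes, 6 were enriched in both wild-type libraries and 2 in none, read against the same shares, with sums of 5.65 and 22.6 in TDG KD, 13.2 and 5.57 in siRNA control and 28.9 and 18.4 in wild type. In 2 fibroblast genes and 0 ES cell genes all 4 siRNA libraries were above both wild-type libraries (all genes 3.26%), and in 1 fibroblast gene and 2 ES cell genes all were below (all genes 16.7%). BHAM359 had the highest sum of both lists, and the second wild-type library lay within the range of the siRNA cultures. The part of feeder DNA in the wild-type levels was not tested.

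The genes that make and bind collagen were described from 2 lists. Of 29 genes of collagen biosynthesis (prolyl and lysyl hydroxylases, the chaperone Serpinh1, lysyl oxidases, procollagen proteases and others) 28 were matched by symbol, and 16 of them had a TSS window enriched in both wild-type libraries (all genes 39.1%), 3 in all 6 libraries (all genes 11.0%) and 0 in none (all genes 28.7%). The 3 were Serpinh1, the collagen chaperone of the endoplasmic reticulum, Adamts2, which removes the amino-terminal propeptide, and Glt25d1, a galactosyltransferase of collagen lysines. Serpinh1 had TSS levels of 1.40 and 2.92 in TDG KD, 1.93 and 1.075 in siRNA control and 5.39 and 2.66 in wild type. The median TSS level of the list was 0.61 and 2.39 in TDG KD, 1.54 and 0.71 in siRNA control and 3.56 and 1.77 in wild type, against 0.75 and 2.30 in TDG KD, 1.45 and 0.33 in siRNA control and 2.77 and 1.30 in wild type in the collagen genes. Over all genes it was 0.11 and 1.54 in TDG KD, 0.16 and 0.021 in siRNA control and 2.31 and 0.59 in wild type. Of the 10 collagen receptor genes, 4 were enriched in both wild-type libraries (all genes 39.1%), 0 in all 6 (all genes 11.0%) and 1 in none (all genes 28.7%), which was Gp6, the platelet receptor. In both lists no gene had the TSS window above the body in 6 of 6 libraries, and none passed limma in either comparison.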

How the data were processed

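5fC pulldown libraries and 1 input library of J1 cells were single-end sequenced. For the deposited files, BWA (0.6.1 according to the submitters' processing notes) placed the reads on mm9, reads of mapping quality 15 or greater were kept, and the authors ran rseg on each replicate with the input as control and bins of 100 bp. The deposited files give each domain a state, a word (enriched, background or unconfident), and a score that was not scaled for depth. Its unit, the mean of pulldown minus input reads per bin, is inferred here, because its sum over bins followed the difference in reads between pulldown and input. The sum was -7.07 M against a difference of -6.04 M in BHAM480 and 1.26 M against 2.31 M in EAR001, the poorest matches, and 20.2 M against 19.4 M in BHAM359. A second deposited score, which grows with domain width, was not used. The study's supplement lists 20.4 to 45.9 M such reads per pulldown and 26.5 M in the input library. The files used give domains and not reads per region, so values carry no counting interval and their precision depends on the spread between 2 libraries per condition.

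Scores were averaged by length over each feature with Python 3.11.15 and NumPy 2.4.6, for features with at least 50% of their bases in domains, and scaled as described with the levels. Genes, exons and introns came from GENCODE M1 and sequence from NCBIM37, the assembly behind mm9. TSS window minus body and exons minus introns were tested per gene by an exact two-sided sign-flip permutation over 6 libraries. Values within 1e-09 reads per M reads counted as equal. Conditions were compared with limma 3.58.1 (R 4.3.3) on all autosomal protein-coding genes, with Benjamini-Hochberg adjustment at 0.05. On simulated data for TDG KD against siRNA control in 21153 windows, limma recovered 95 of 100 shifts of 5 SD and all 100 of 15 SD, with 15 false calls. The simulation gave every gene normal noise of the same SD. In the data the limma SE differed between genes, with 0.63 in the Col6a5 window and 1.55 in the Col1a2 window. Recovery under such unequal spread was not tested. Groups came from the sample titles. The genes whose values are given per library were Col1a1, Col1a2, Col3a1, Col4a1, Col4a2, Col2a1 and Col18a1, the 5 largest and 5 smallest mean differences of window and body, the 3 largest and 3 smallest of exons and introns, members past limma (0), and, by name, those enriched in all or no libraries. Others named beside a count were chosen after their values were seen. The collagen genes, the lists and these rules were chosen with earlier results of these data known. Alternatives were other gene starts, windows of 500 bp and 2 kb, chromosome means, other scalings, a minimum length of 10 kb, stricter domains and leaving out each library. The study calls the replicates biological.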

Additional observations from a re-analysis of the deposited data

How the results depend on the processing

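Of 230 recomputed values, 215 stayed within 1.5 times the reported count and 15 did not. Most of the 215 were limma counts of 0 in both runs, which no ratio can measure. The tally therefore says little about how stable the other counts are. Dropping the lowest 25% of enriched domains left 3 collagen windows enriched in all 6 libraries in place of 9. It left 6 in both TDG KD libraries in place of 10 and 13 in both wild-type libraries in place of 20. No share over all genes stands beside these counts of windows, nor beside the count of windows that follows. Leaving out 1 library in turn gave 9 to 17 windows enriched in all the others, 1 to 3 genes with the TSS window above the body in all the others and 1 to 2 with exons above introns. For siRNA cultures against wild type the same step gave limma calls of 0 to 3 collagen genes and 0 to 1936 of all genes in TSS windows, 0 to 7 collagen genes and 0 to 5320 of all genes in exons, and 0 to 3 of all genes in introns. The highest counts all came without BHAM470, where BHAM359 is assumed to vary like the other groups, and the cause was not tested. TDG KD against siRNA control gave 0 calls under every alternative run, the title prefix as a block included. The labels give no replicate numbers, and the prefix only stands in for a pairing that they do not state. With it as a block 112 windows had an unadjusted p under 0.05, against 194 without. Windows of 500 bp or 2 kb, other gene starts and chromosome means moved no count of enriched windows, of the 6 of 6 calls or of limma calls by over 1.5 times. Collagen windows whose siRNA and wild-type levels did not overlap numbered 2 with chromosome means in place of 4, and those without overlap between TDG KD and control numbered 11 with levels divided by the library SD in place of 6. No share over all genes stands beside these counts, so they cannot be read as particular to collagen genes. With levels divided by the library SD, siRNA cultures and wild type had a median difference of -0.0054 in collagen windows and -0.19 in all genes. In introns it was 0.021 in collagen genes and -0.12 in all genes, also in SD units. One limit is the width of the domains, which in 5 libraries leaves promoter and body of 19 to 30 collagen genes with 1 value.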
